A study of Mus musculus with 4 samples.

Results

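The killer cell lectin-like receptor genes (Klr) and the C-type lectin domain family genes (Clec) of the mouse were examined for H3K27me3, the trimethylated lysine 27 of histone H3, in GL261 cells. Members were all protein-coding RefSeq genes whose symbol starts with Clec or Klr. There were 62 of them among 21900 protein-coding genes. For 60 the gene table gave a position on a chromosome of GRCm38, the assembly of mm10; Klra16 and Klra23 carry positions of other scaffolds and were not analysed here. A gene was counted as having a peak when a listed peak lay in it or within 2000 bp of it, and a peak near several members was counted once. The group was proposed with the peaks of these lists in view, so the counts at members are given as a description, with no test.

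GL261 is a mouse glioblastoma line, derived from a C57BL/6 mouse, the strain of the reference assembly. Chromatin immunoprecipitation with an antibody against H3K27me3 was followed by sequencing in 1 library of control cells and 1 library of irradiated cells, grown in the same medium, and each condition had an input library, which was not analysed here by itself. The title of the study names radiation, and IR in the sample titles was taken to mean it. The labels state neither the radiation dose nor the harvest time. There were 9866 control peaks and 16091 irradiated peaks, 1.63 times as many. Each condition had a single library, so differences between the lists have no replicate check and no p-value, and the intervals below cover counting error only.

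Most proteins of these families share the C-type lectin fold. In mice, natural killer (NK) cells read the surface of other cells through the Ly49 receptors (Klra genes), which bind class I MHC molecules, through the CD94 and NKG2 receptors (Klrd1, Klrc and Klrk1 genes), and through the NKR-P1 receptors (Klrb1 genes), some of which bind the Clr proteins that Clec2 genes encode. Myeloid cells carry relatives such as dectin-1 (Clec7a), a receptor for fungal glucans, and Mincle (Clec4e), a receptor for mycobacterial lipids. Most of these genes lie side by side in the natural killer gene complex of distal chromosome 6, and most are expressed mainly in leukocytes. H3K27me3 is laid down by Polycomb repressive complex 2 on genes that a cell keeps silent, most densely at promoters rich in CG dinucleotides. Peak lists give no expression, so the labelled cell type could not be checked here.

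A control peak lay at 18 of the 60 members (30%, exact 95% interval 18.8 to 43.2), against 6.09% of all placed protein-coding genes. An irradiated peak lay at 16 members (26.7%, 16.1 to 39.7), against 8.24% of all genes. Both lists had a peak at 7 members (11.7%, 4.82 to 22.6), against 3.69% of all genes. There were 11 members with control peaks alone (2.4% of all genes), 9 with irradiated peaks alone (4.55% of all genes) and 33 with none. Since members were chosen with these peaks known, nothing is read from the distance between their shares and those of all genes. The median length of a member was 14294 bp and that of all genes 17219 bp.

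**Figure D1:**
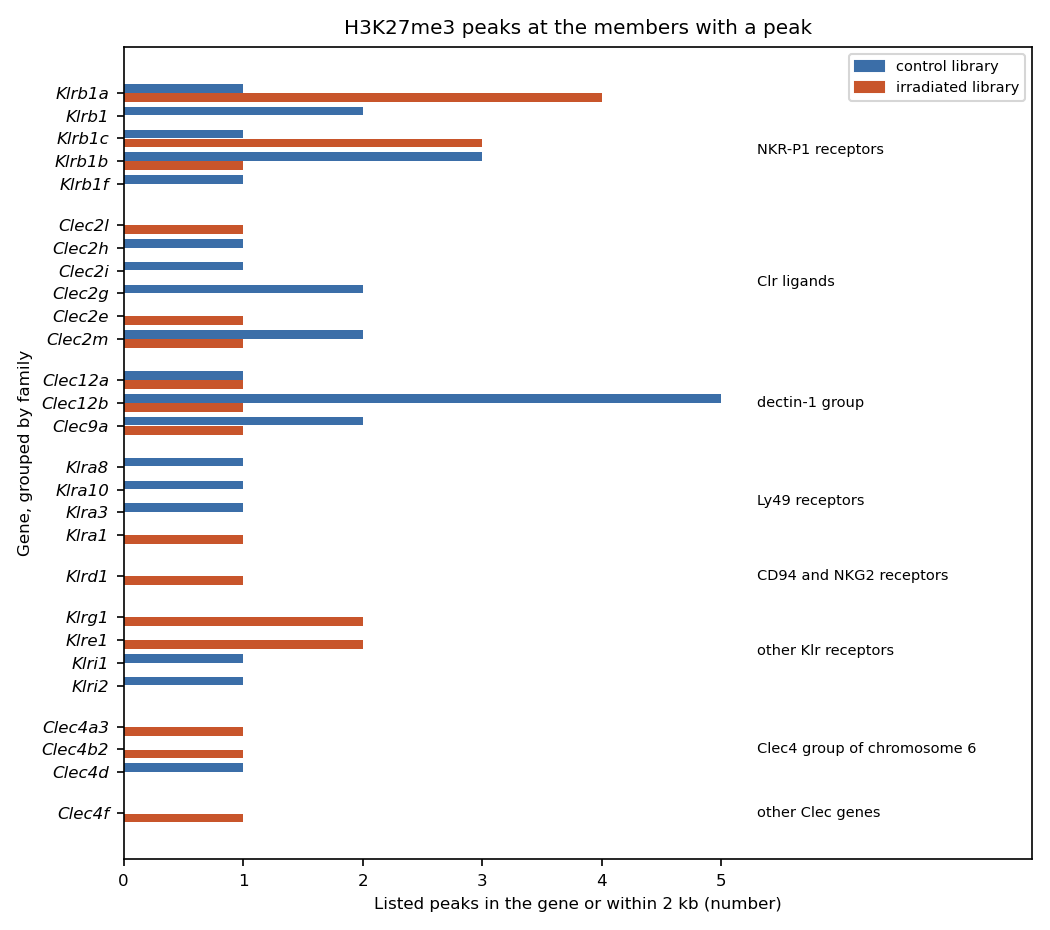
Number of listed peaks (x axis) at each of the 27 members with a peak (y axis, grouped by family), in the control and the irradiated library. All 5 NKR-P1 receptor genes have a control peak, Clec12b has the most control peaks (5) and Klrb1a the most irradiated peaks (4), and 1 gene of the CD94 and NKG2 family has a peak.

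The peaks lay in the chromosome 6 cluster. The cluster was taken as the 47 members from Klrg1 to Klra1 on distal chromosome 6 (122270596 to 130386874), within a fixed interval of 9 Mb. All 18 members with a control peak and 14 of the 16 with an irradiated peak were in it, with 26 distinct control and 19 distinct irradiated peaks. The 13 other members, among them the Ly49 gene Klra2 just past the distal end of the interval, had 0 control peaks and 2 irradiated peaks. Over genes with their flanks this came to 26.5 control peaks per Mb in the cluster (exact Poisson 95% interval 17.3 to 38.8) and 0 outside it (0 to 8.62), and to 19.3 irradiated peaks per Mb in the cluster (11.6 to 30.2) and 4.67 outside it (0.566 to 16.9). With Klra2 taken in, the cluster had 25.1 control and 18.4 irradiated peaks per Mb. All placed protein-coding genes together had 2.86 control and 5.58 irradiated peaks per Mb.

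The surroundings of the cluster held many peaks too. The other 110 protein-coding genes of the 9 Mb had 26.5 control peaks per Mb (21.3 to 32.6), the same density as the cluster members. Their irradiated density was 59.9 peaks per Mb (51.9 to 68.7), above the interval of the cluster members. A control peak lay at 17.3% of these neighbours and an irradiated one at 20.9%. Among the cluster members the shares were 38.3% (24.5 to 53.6) and 29.8% (17.3 to 44.9). Since members were chosen with these peaks known, nothing is read from the distance. The density was uneven along the 9 Mb. In the distal 3 Mb the 19 neighbours had 19.5 control (8.91 to 37) and 10.8 irradiated peaks per Mb (3.52 to 25.3). The 37 members there had 33.2 (21.5 to 49) and 19.9 (11.2 to 32.9). In the 3 Mb of the interval that precede the natural killer gene complex no member lies, and 196 control and 415 irradiated peaks were listed, at genes or between them.

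Which list had more peaks varied along the interval; this was not tested. All cluster members together had 0.731 irradiated peaks per control peak (0.382 to 1.37), while the 110 other genes of the interval had 2.26 (1.75 to 2.92) and the whole lists 1.63 (1.59 to 1.67). In the distal 3 Mb of the interval, which hold the complex, with all peaks counted whether at a gene or not, there were 56 control and 33 irradiated peaks, a ratio of 0.589 (0.371 to 0.922). The 19 non-member genes of that stretch had 9 control and 5 irradiated peaks, a ratio of 0.556 (0.146 to 1.85), and the 37 members there had 25 and 15, a ratio of 0.600 (0.294 to 1.18). The 10 cluster members that lie proximal to them, Klrg1 and the Clec4 genes, had 1 control and 4 irradiated peaks, a ratio of 4 (0.396 to 197). The order turned when weak peaks were left out: with a −log10 p of at least 5, the cluster members had a ratio of 3.50 (0.666 to 34.5), from 2 control and 7 irradiated peaks. Strong peaks also made up more of the irradiated list as a whole, by another threshold. A q of at most 0.05 was reached by 15.2% of irradiated peaks and by 6.84% of control peaks. No whole-list ratio at a −log10 p of at least 5 is at hand. The turn is therefore not read as particular to the cluster members.

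**Figure D2:**
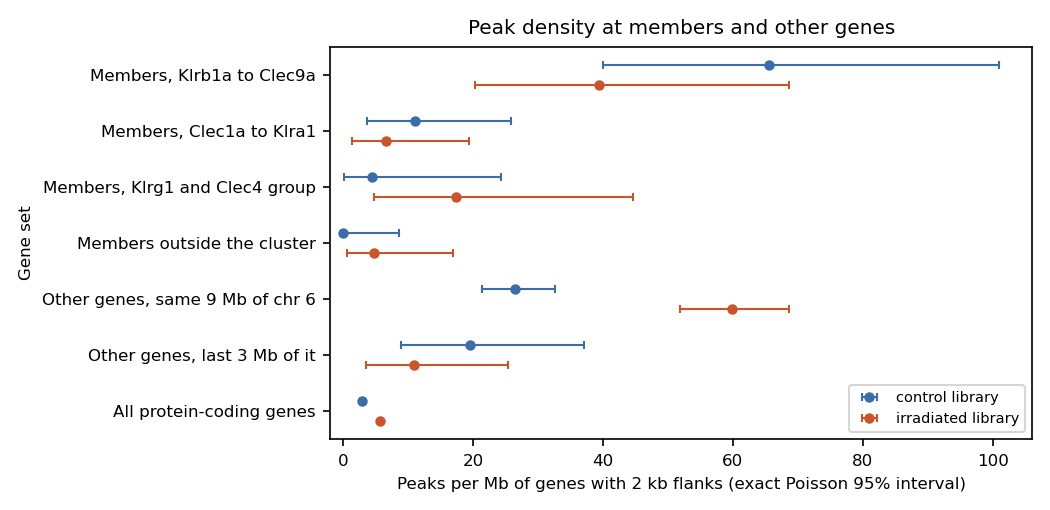
Peaks per Mb of genes with 2000 bp on either side (x axis) for members and other genes (y axis), in both libraries; bars are exact Poisson 95% intervals. Members from Klrb1a to Clec9a have the highest control density of the sets plotted (65.5 per Mb), and the other genes of the 9 Mb of chromosome 6 have more irradiated than control peaks per Mb (59.9 and 26.5).

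Within the complex, peaks lay mostly at its proximal end. The 16 members from Klrb1a to Clec9a (NKR-P1 receptors, their Clr ligands and part of the dectin-1 group) had 20 control and 12 irradiated peaks, or 65.5 (40 to 101) and 39.3 (20.3 to 68.7) per Mb. The 21 members from Clec1a to Klra1 (Clec1a and Clec7a of the dectin-1 group, CD94 and NKG2, Klre1, Klrh1, Klri and Ly49 genes) had 5 and 3, or 11.0 (3.59 to 25.8) and 6.63 (1.37 to 19.4) per Mb. All 7 members with a peak in both lists were in the proximal stretch. The boundary between the stretches was set after the peaks were seen. The sources used here do not say how reads that match several paralogs were treated; such reads are frequent in tandem families, and their part in the counts of the stretches was not tested.

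**Figure D3:**
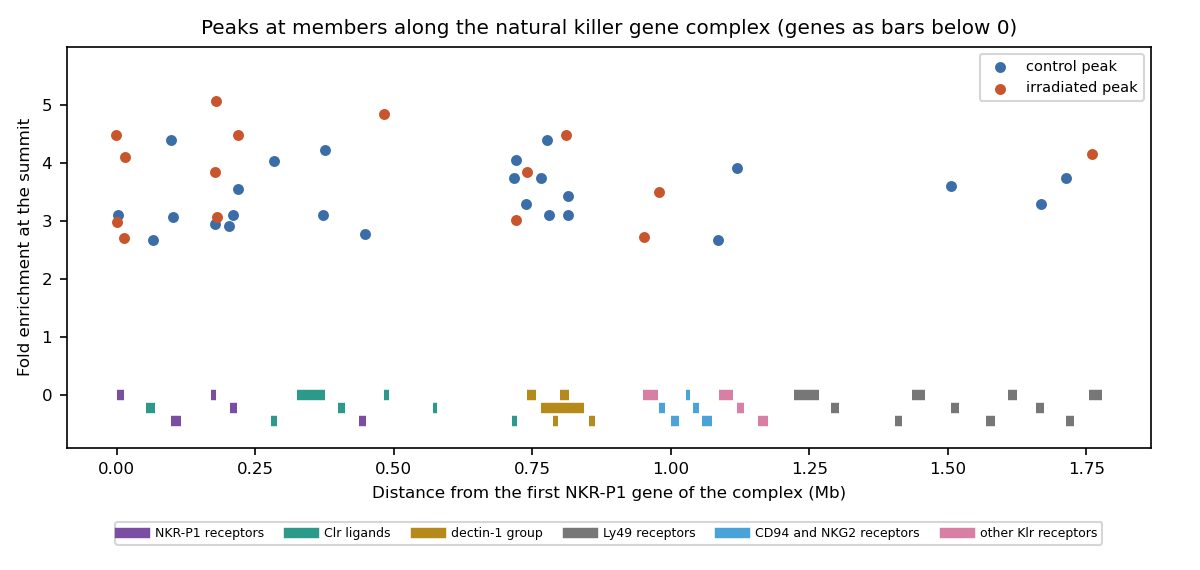
Fold enrichment (y axis) of each control and irradiated peak at members along the natural killer gene complex (x axis, distance in Mb from Klrb1a); bars below 0 are the genes, coloured by family. Most peaks lie in the proximal part, over the NKR-P1, Clr and dectin-1 genes, and few over the Ly49 genes.

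The NKR-P1 receptor genes had 8 control and 8 irradiated peaks. Control peaks lay at all 5 and irradiated peaks at 3. Klrb1c encodes NK1.1, the activating receptor whose antibody marks NK cells of C57BL/6 mice (chromosome 6, 128778485 to 128788641). It had 1 control and 3 irradiated peaks. Its control peak had 8 ChIP reads at the summit, a fold of 2.95 over the local background and a q of 1. Its strongest irradiated peak, at 128788465 to 128789130, reached 16 reads and a fold of 5.07 (q 0.0107). The summit of that peak lay 59 bp upstream of the transcription start, and the peak covered the whole 300-bp promoter window. It was the only one of the 58 promoter windows at hand, which belong to 50 members, that a peak of either list met. The other members, among them Klrd1, had no window and could not be checked. Over all protein-coding genes 0.193% of windows met a control peak and 0.376% an irradiated peak. Another irradiated peak of Klrb1c, at 128786979 to 128787249 in the gene, overlapped the control peak at 128786924 to 128787226. They were the only pair of peaks at members that overlapped between the lists.

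The promoter window of Klrb1c is shown because the peak lies on it, and that of Klrb1a because it is the closest relative among the NKR-P1 promoters and had no peak. Both run 5′ to 3′ on the minus strand (GRCm38.p6, RefSeq), from 250 bases before to 50 after the transcription start, and capitals mark CG dinucleotides.
Klrb1c, chr6:128788592-128788891: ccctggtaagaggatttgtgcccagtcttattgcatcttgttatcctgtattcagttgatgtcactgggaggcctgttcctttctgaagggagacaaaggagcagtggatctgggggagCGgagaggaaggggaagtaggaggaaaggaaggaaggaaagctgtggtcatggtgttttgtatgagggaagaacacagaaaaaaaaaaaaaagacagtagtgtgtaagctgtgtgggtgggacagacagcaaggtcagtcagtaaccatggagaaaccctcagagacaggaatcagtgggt
Klrb1a, chr6:128622885-128623184: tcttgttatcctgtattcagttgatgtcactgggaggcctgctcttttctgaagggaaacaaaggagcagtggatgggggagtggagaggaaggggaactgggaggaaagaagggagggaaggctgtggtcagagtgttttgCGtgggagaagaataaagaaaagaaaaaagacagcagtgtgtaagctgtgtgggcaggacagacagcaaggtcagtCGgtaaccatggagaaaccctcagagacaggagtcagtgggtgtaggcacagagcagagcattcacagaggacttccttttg
In a global alignment 236 of 260 aligned bases were identical (90.8%), with 80 gap positions. The window of Klrb1c holds 1 CG and that of Klrb1a 2. The window of Klrb1b, an inhibitory receptor gene that follows Klrb1c, holds 7 and was less alike to that of Klrb1c (71.4% of 241 aligned bases).

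Klrb1a (128609227 to 128622934) had the most irradiated peaks of any member, 4, and 1 control peak. The strongest irradiated one, at 128607316 to 128607754, lay downstream of the gene with 12 reads and a fold of 4.49 (q 0.0536). A further one, 1803 bp upstream of the start, reached a fold of 4.10 with 13 reads (q 0.0536). The control peak lay in the gene (8 reads, fold 3.11, q 1). Klrb1b, the inhibitory receptor for Clr-b (128813706 to 128826315), had 3 control peaks and 1 irradiated peak. Upstream of its start the lists came close without overlap: the irradiated summit lay at 740 bp (12 reads, fold 4.49, q 0.0536) and the control summit at 1623 bp (10 reads, fold 3.56, q 0.385), with 623 bp between the peaks. Klrb1 (128706093 to 128724330) had 2 control peaks and no irradiated peak. The stronger one, at 128707153 to 128707452 in the gene, reached a fold of 4.40 with 12 reads; its q of 0.0823 was the lowest of a control peak at a member, shared with a peak of Clec12b. Klrb1f, another NKR-P1 receptor gene, had 1 control peak of 7 reads and a fold of 2.78, the fewest reads that could be listed over the lowest background.

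The Clec2 genes, most of which encode Clr proteins, had 6 control and 3 irradiated peaks at 6 of 8 members. Clec2e, which encodes Clr-a (129091816 to 129100903), had no control peak and 1 irradiated peak at 129091817 to 129092414. That peak reached a fold of 4.85 with 15 reads, and its q of 0.00866 was the lowest at any member. It lay at the 3′ end of the gene, 8628 bp from the transcription start. Clec2m had 2 control peaks (folds 3.75 and 4.06) and 1 irradiated peak (fold 3.02), which lay 510 bp from the nearer control peak. Clec2g (2 peaks, highest fold 4.22), Clec2h, which encodes Clr-f (fold 2.67), and Clec2i, which encodes Clr-g (fold 4.04), had control peaks alone. The Clec2i peak also lay within 2000 bp of BC035044, which is no member. Clec2d, which encodes Clr-b, the ligand of Klrb1b, and Clec2f had no peak. Clec2l, which lies apart from the cluster on chromosome 6 (38663069 to 38680865), had 1 irradiated peak of fold 2.73 (q 0.537), over a background of 2 scaled reads.

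In the dectin-1 group, 3 of 6 genes had a peak, each of them in both lists, with 6 distinct control and 2 distinct irradiated peaks. Clec12b, an inhibitory receptor gene (129375513 to 129427634 in RefSeq, a span that takes in Clec1b and Clec9a), had 5 control peaks and 1 irradiated peak. Its strongest control peak, at 129384644 to 129384962, reached a fold of 4.40 with 12 reads (q 0.0823). Of these, 2 control peaks and the irradiated peak (12 reads, fold 4.49, q 0.0536) also lay in Clec9a, the receptor gene by which dendritic cells sense actin of dead cells, and they were counted once. Their summits lay 33615 bp or more upstream of the nearest Clec12b transcript start with a promoter window. A further control summit lay 4585 bp upstream of it. These peaks count for Clec12b only through its long RefSeq span. Clec12a, an inhibitory receptor of myeloid cells, had 1 control peak (9 reads, fold 3.29, q 0.831) and 1 irradiated peak (10 reads, fold 3.84, q 0.149). Both summits lay upstream of the gene, and the peaks were 683 bp apart. The irradiated peak reached into the gene. Clec7a (dectin-1), Clec1b, the platelet receptor for podoplanin, and Clec1a had no peak.

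The Ly49 genes had 3 control peaks and 1 irradiated peak over 11 placed members. Klra8, which encodes Ly49H, the activating receptor for a cytomegalovirus protein (fold 3.60), Klra10, which encodes Ly49J (fold 3.29), and Klra3, which encodes Ly49C, an inhibitory receptor (fold 3.75), had 1 control peak each, with 10, 9 and 10 reads. Klra1, which encodes the inhibitory receptor Ly49A (130363918 to 130386874), had 1 irradiated peak, which lay at 130370134 to 130370403 in the gene and reached a fold of 4.16 with 11 reads (q 0.0536). No Ly49 gene had a peak in both lists. The other 7, Klra2, Klra4, Klra5, Klra6, Klra7, Klra9 and Klra17, had none.

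Of the CD94 and NKG2 genes, Klrd1, which encodes CD94, had a peak. The peak was irradiated, lay 115 bp outside the gene (9 reads, fold 3.51, q 0.537) and was shared with the neighbouring Klre1. Klrk1, which encodes the activating receptor NKG2D, and Klrc1, Klrc2 and Klrc3 had no peak in either list. Among the remaining Klr genes, Klre1, whose product pairs with those of Klri1 and Klri2, had 2 irradiated peaks, and Klri1 and Klri2 had 1 control peak each (folds 2.67 and 3.91). Klre1 also held the widest peak at a member, 923 bp, with 13 reads over a background of 2 scaled reads and a fold of 2.73. The summit of that peak lay 17875 bp upstream of the nearest Klre1 transcript start with a promoter window. Klrg1, an inhibitory receptor for cadherins at 122270596 to 122282833, had 2 irradiated peaks (folds 3.68 and 3.84, q 0.149 for both) and no control peak. Klrh1 and Klrg2 had none.

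The Clec4 genes of the chromosome 6 cluster, which encode receptors of dendritic cells and macrophages, had 1 control and 2 irradiated peaks over 9 members. Clec4a3 (122952515 to 122969878) had 1 irradiated peak at 122966311 to 122966640 (13 reads, fold 4.81, q 0.0119) and no control peak. Clec4b2 had an irradiated peak (10 reads, fold 3.84, q 0.149). Clec4d, the partner of Mincle in sensing mycobacterial lipids, had a control peak whose summit lay 1846 bp upstream of the gene (8 reads, fold 3.11, q 1). Clec4a1, Clec4a2, Clec4a4, Clec4b1, Clec4e and Clec4n, which encodes dectin-2, had none. Of 10 other Clec genes, Clec4f, a receptor gene of Kupffer cells on chromosome 6, had 1 irradiated peak (11 reads, fold 3.41, q 0.149). Clec3a, Clec3b, Clec4g, Clec5a, Clec10a, Clec11a, Clec14a, Clec16a and Clec18a had none.

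Peaks at members had median folds close to those of the whole lists, and few reached a q of at most 0.05. The 26 control peaks had a median fold of 3.29 (lowest 2.67, highest 4.40) beside 3.43 in the whole list, and 7 to 12 reads with a median of 9. The 21 irradiated peaks had a median fold of 3.84 (2.71 to 5.07) beside 3.67 in the whole list, and 8 to 16 reads with a median of 11. No member had a control peak with a q of at most 0.05 (0 of 60, upper exact limit 5.96%), against 0.519% of all genes. Members with an irradiated peak of that q were Clec2e, Klrb1c and Clec4a3 (3 of 60, 5%, 1.04 to 13.9), against 2.09% of all genes. Counted per peak, this q was reached by 0 of 26 control peaks at members, against 6.84% of the whole list, and by 3 of 21 irradiated peaks, against 15.2% of the whole list. With so few peaks, nothing is read from the distance between these shares. Each list has its own scale: over the lowest background a listed peak needed a fold of 2.78 in control and 3.19 in irradiated cells. Local background at member peaks was 0.918 to 1.25 scaled reads in the control list, beside a lowest value of 0.918, and 0.704 to 2 in the irradiated list, beside 0.704.

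**Figure D4:**
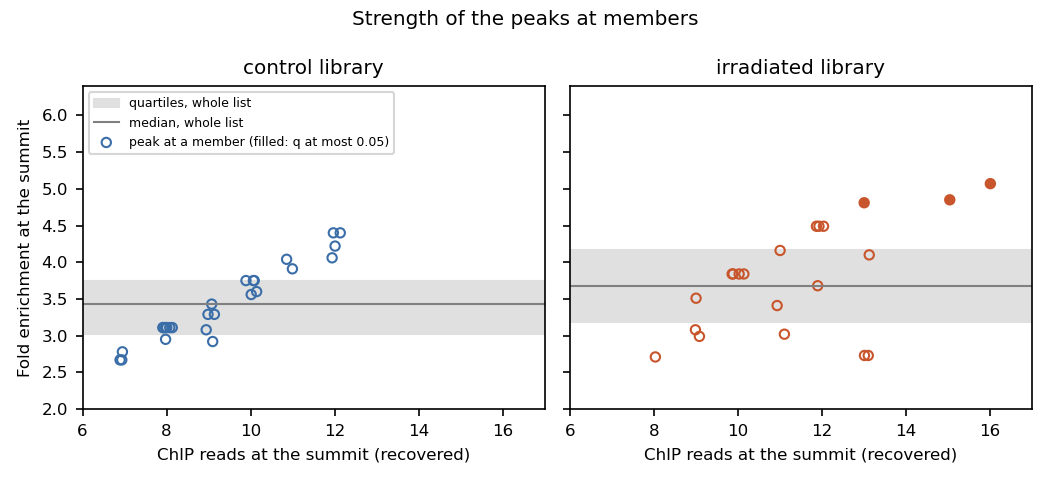
Fold enrichment (y axis) against recovered ChIP reads at the summit (x axis, points spread slightly) of each peak at a member, in the control and the irradiated library; the grey band and line are the quartiles and the median of the whole list. No control peak and 3 irradiated peaks have a q of at most 0.05.

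Listed peaks at members seldom overlapped between the lists. Of the 26 control peaks, 1 overlapped an irradiated peak (3.85%, 0.0973 to 19.6), against 21.4% of the whole control list. Of the 21 irradiated peaks, 1 overlapped a control peak (4.76%, 0.120 to 23.8), against 13.3% of the whole list. Another list's peak within 1000 bp was found for 4 control and 5 irradiated peaks, which belonged to Klrb1a, Klrb1c, Klrb1b, Clec2m and Clec12a. Of the 7 members with a peak in both lists, 1 (Klrb1c) had overlapping peaks, and the other 6 had peaks that did not overlap. For this count and for the counts within 1000 bp no share over all genes or whole lists is at hand. Nothing is read from them about the members. The shares of the whole lists take in peaks of all strengths, and no share was computed for peaks of like strength. With so few reads a peak, the counts do not show that the mark itself lay at different places. Counted per gene, 19 of 28 control and 14 of 23 irradiated summits lay inside the gene, 3 and 5 upstream, and 6 and 3 downstream, with 1 irradiated summit beside a gene of unknown strand (Klrd1).

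The promoters of the cluster held few CG dinucleotides. RefSeq promoter windows were at hand for 50 members. The 48 windows of cluster members had 0 to 7 CG with a median of 2.5, beside a median of 13 (quartiles 4 and 24) over 21263 windows of all placed protein-coding genes. A count of 3 or fewer was found in 66.7% of cluster windows and 23.9% of all windows. The 10 windows of the other members had a median of 4.5, with the highest counts at Clec2l (29) and Clec16a (25), a regulator of mitophagy. Both strands read alike for this motif, and windows of a gene with several starts can overlap.

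**Figure D5:**
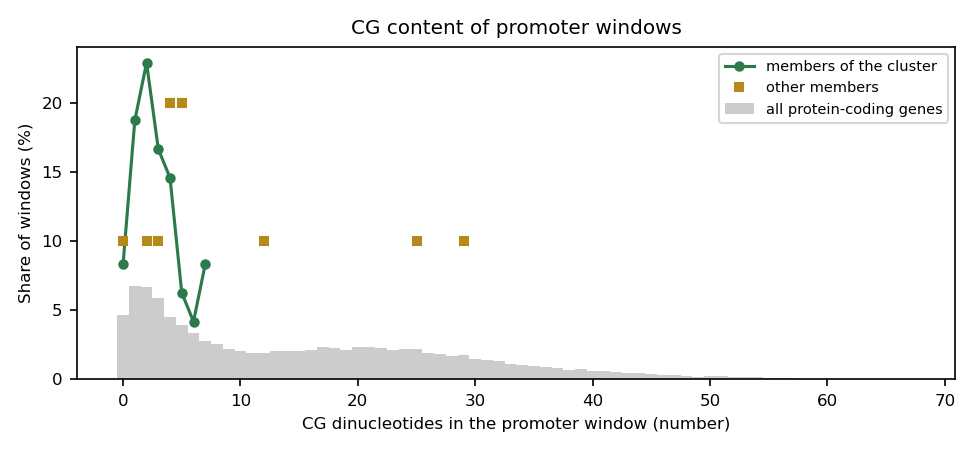
Share of 300-bp promoter windows (y axis) by the number of CG dinucleotides in them (x axis), for all placed protein-coding genes (bars), members of the chromosome 6 cluster (line) and the other members (squares). Windows of the cluster stop at 7 CG, while all genes reach 67.

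The window of 2000 bp decided some calls. The only peak of Clec4d, a control peak, lay inside it at 1679 bp from the gene (fold 3.11), and that of Klri1 at 1341 bp (fold 2.67). Just outside lay control peaks at 2167 bp from Clec1a (fold 3.43) and at 2462 bp from Clec10a (fold 3.08). The peak near Clec1a lies in Clec12b and Clec9a and was counted there.

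C-type lectin genes of other names and the signalling partners of these receptors were counted in the same way. These counts are to be read against the shares of all genes, 6.09% with a control peak and 8.24% with an irradiated peak; with so few genes a list, nothing is read from them. Of 49 lectin-fold genes without the prefix, control peaks met 4 and irradiated peaks 7. Colec12, which encodes a scavenger receptor collectin (chromosome 18), had 5 peaks in each list, the strongest with folds of 3.70 (q 0.195) and 6.06 (q 0.000505). Cd69 and Olr1, which lie within the natural killer gene complex, had none. Of 24 partners and ligands, control peaks met 2 and irradiated peaks 4. Inpp5d, the phosphatase gene SHIP1 that acts below inhibitory receptors, had 1 control peak (fold 3.29) and 7 irradiated peaks (highest fold 3.92, q 0.0536). Ulbp1, which encodes a ligand of NKG2D, had 2 control peaks (highest fold 4.22, q 0.115) and no irradiated peak. None of 8 glioma line markers (Gfap, Vim, Nes, Sox2, Olig2, S100b, Cd44 and Slc1a3) had a peak in either list. Of 7 markers of NK and myeloid cells, 0 were met by control peaks, and Itgam and Csf1r (2 genes) by irradiated peaks (folds 4.16 and 3.63).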

How the data were processed

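H3K27me3 ChIP-seq libraries of control and irradiated GL261 cells gave 1 peak list each, called per library. Per the labels' protocols, chromatin was fixed with 1% formaldehyde, sheared to 300 to 500 bp and sequenced in pairs of 150-bp reads. BWA, deepTools and mm10 are named, per the submitters' processing notes; the sources used here name neither the peak caller nor its settings. The deposited values of a peak are other values (positions in bp), a score (10 times the −log10 p, cut to a whole number), a ratio (fold enrichment at the summit over the local background) and −log10 values of the unadjusted p-value and of the q-value. Listed p-values reached 0.00495 (control) and 0.00499 (irradiated). All these are the authors' values and describe peaks within a list.

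Lines giving a further summit of an interval (215 and 679) were merged. Reads were recovered from fold and p with a Poisson model, fold being scaled pileup plus 1 over background plus 1. A solution within 0.001 was found for 100% of peaks, with more than 1 for 0% of control and 0.292% of irradiated peaks; 1 read counted as 0.620 and 0.554 scaled reads. The model is not named in the labels. On 2000 peaks simulated from the same model, with the scale of a read given, it returned 100% of reads and backgrounds. That checks the arithmetic and cannot show whether the model holds for these lists. Library totals are unknown. Genes and promoters came from RefSeq (GRCm38.p6), with 21774 placed protein-coding genes. Python 3.11.15, scipy 1.17.1 and biopython 1.88 were used. Shares have exact (Clopper-Pearson) 95% intervals, densities exact Poisson ones and ratios binomial ones.

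The members and lists were chosen with earlier results of these data known. From each family up to 4 members by number of peaks were named, with the 10 of lowest q and short counts completed. Thresholds, list length, windows, merging, overlap and cluster bounds were varied.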

Additional observations from a re-analysis of the deposited data

How the results depend on the processing

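Of 55 alternative values, 38 stayed within 1.5 times the count or within the counting interval, and 17 did not; most of the 17 came from stricter thresholds. With a q of at most 0.05, 0 members had a control peak and 3 an irradiated one, with 0 and 3 distinct peaks, and the cluster densities were 0 and 3.05 peaks per Mb; no ratio or overlap could then be computed. With a −log10 p of at least 5 there were 2 and 8 members with 2 and 7 distinct peaks, densities of 2.04 and 7.12 per Mb, a cluster ratio of 3.50 and an overlap of 0%. The irradiated peak shared by Clec12b and Clec9a makes members outnumber peaks there. In gene bodies alone 17 distinct control peaks remained. Over the lowest background alone, a choice made after the data were seen, 13 control and 10 irradiated peaks were left. With equal numbers of peaks the cluster ratio was 0.500, and without Klrg1 and the Clec4 genes it was 0.600. The ratio at the other members had no control peak to divide by. No paired analysis was possible because each condition had 1 library. The peaks at members rest on 7 to 16 reads, library depth is unknown, and a gene without a listed peak may carry the mark below the calling threshold.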
